A study of Mus musculus with 3 samples.

Results

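Chromatin immunoprecipitation sequencing (ChIP-seq) peaks of HA-tagged NUR77 were examined around the genes of interleukin-1α (Il1a), interleukin-1β (Il1b) and the interleukin-1 receptor antagonist (Il1rn). The members were the peaks whose centre lay on mouse chromosome 2 within 129.06 to 129.27 Mb (the Il1a/Il1b window, 210 kb) or within 24.12 to 24.27 Mb (the Il1rn window, 150 kb), in coordinates of the mm9 build. They numbered 40 of the 52946 peaks in the lists. Replicate 1 held 5 of its 6777 peaks there, replicate 2 held 27 of 37307 and replicate 3 held 8 of 8862. The rule for the members uses position alone, and not scores, widths or agreement between replicates, but the windows were proposed with earlier results of these data known.

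All 3 samples belonged to 1 group. RAW264.7, an established mouse macrophage line, carried the pINDUCER20b-HA-NUR77 construct, from which doxycycline induces HA-NUR77. Each replicate was grown in 6 dishes, received 1 µg/mL doxycycline for 18 hours, was cross-linked with disuccinimidyl glutarate and formaldehyde, and was precipitated with a mouse antibody against the HA tag. The labels name no inflammatory stimulus. The tagged protein was overexpressed. No uninduced, untagged or control-antibody sample was analysed here, so the background at the peaks below was not measured here. The labels do not say whether the replicates came from separate days, and the spread between them may be technical.

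NUR77 is an orphan nuclear receptor of the NR4A family. As a monomer it binds the NBRE element, AAAGGTCA. Interleukin-1α and interleukin-1β are related cytokines that signal through the same receptor. Interleukin-1α is active as its precursor and acts as an alarm signal when cells are damaged, whereas pro-interleukin-1β must be cut by caspase-1 in an inflammasome. The receptor antagonist occupies the receptor without triggering it. Macrophages raise transcription of both cytokine genes strongly when Toll-like receptors are engaged. RAW264.7 cells are known to lack the inflammasome adaptor ASC, which limits them as a model for interleukin-1β release.

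The mm9 genome sequence and annotation were not used here, so the windows were not checked to hold these genes, no distance to a gene start is given, and peaks are placed by window and by distance to each other. In the RefSeq gene table, which is of the GRCm38.p6 assembly and was read for gene order alone, Il1a and Il1b are direct neighbours among protein-coding genes. Ckap2l adjoins Il1a and F830045P16Rik adjoins Il1b. Il1rn lies between Il1f10, another member of the interleukin-1 family, and Psd4, an exchange factor gene. A region in the Il1a/Il1b window is therefore not assigned to Il1a rather than Il1b, nor to either rather than a neighbour.

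RefSeq promoter sequences (GRCm38.p6) were searched as a reference for the gene starts, in the 250 bases before each start. The table held 1 start for Il1a, 1 for Il1b and 3 for Il1rn. The NBRE (AAAGGTCA, both strands) was in none of the 5, and it was in 1.34% of the 32851 promoters of this length. The hexamer AGGTCA, the core of the NBRE, was in 1 of the 5, the most upstream start of Il1rn, against 14.0% of all promoters. The stretches of the other Il1rn starts overlap, so the 5 are not independent. By gene, the hexamer was in 1 of the 3, against 15.8% of 27025 genes. The Il1rn promoter is shown because it held the match, and the Il1b promoter because it is one without. They are given 5′ to 3′ on the strand of the gene, with the hexamer in capitals, which reads TGACCT because it lies on the opposite strand, its first printed base 189 bases before the start. For Il1b, the 225 bases that lie before all of its annotated transcripts are shown. Whether these stretches lie under a peak was not determined, and a match is a description of letters, not a binding site.
Il1rn promoter, chr2:24336610-24336859 (GRCm38.p6, plus strand): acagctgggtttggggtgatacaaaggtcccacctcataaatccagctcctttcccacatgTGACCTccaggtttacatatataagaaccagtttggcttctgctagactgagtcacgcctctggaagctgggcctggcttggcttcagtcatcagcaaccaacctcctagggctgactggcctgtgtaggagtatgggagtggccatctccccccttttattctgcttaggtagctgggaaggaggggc
Il1b promoter, chr2:129371165-129371389 (GRCm38.p6, minus strand): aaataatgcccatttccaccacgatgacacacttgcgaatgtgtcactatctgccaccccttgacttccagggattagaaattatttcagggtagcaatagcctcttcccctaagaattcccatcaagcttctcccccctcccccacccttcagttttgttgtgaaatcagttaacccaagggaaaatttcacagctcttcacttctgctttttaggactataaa

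Peaks of HA-NUR77 were called in the window given for the cytokine genes and in that given for the antagonist gene in each of the 3 replicates. Replicate 1 had 4 peaks in the Il1a/Il1b window, replicate 2 had 17 and replicate 3 had 6 (mean 9 ± 7, SD, n = 3). The Il1rn window held 1, 10 and 2 peaks in the same replicates, a mean of 4.33 ± 4.93 (SD, n = 3). Replicate 2 was the highest in both windows, as it was over the whole lists. Peaks of the lists that overlapped by at least 1 bp were merged into regions, numbered from 1 by position within each window. This gave 17 regions for Il1a/Il1b and 10 for Il1rn.

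Of the 17 regions around Il1a and Il1b, 6 (35.3%, exact 95% interval 14.2 to 61.7) held peaks of at least 2 replicates, against 25.4% of the 38463 merged regions of the genome. Peaks of all 3 replicates were in 4 of the 17 (23.5%, 6.81 to 49.9), against 12.3% of all regions. Around Il1rn, 2 of the 10 regions (20%, 2.52 to 55.6) held at least 2 replicates and 1 (10%, 0.253 to 44.5) held all 3. Each of these intervals, which cover counting error only, includes the share over all regions. With so few regions, which are neighbours and not independent, the intervals are wide and could exclude only a large departure from the genome's share. The remaining 11 and 8 regions were called in replicate 2 alone, as were 72.1% of all regions. Neither window held a region of replicate 1 alone or of replicate 3 alone, which make up 1.0% and 1.58% of all regions. The counts leaned on the longest list: without replicate 2, the other lists shared 3 regions around Il1a and Il1b and 1 around Il1rn. Without replicate 3 these counts were 4 and 1.

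Read by replicate, the shorter lists were contained in the longer one at these genes. All 4 peaks of replicate 1 around Il1a and Il1b and its 1 peak around Il1rn lay in shared regions, against 94.3% of all replicate 1 peaks. The same held for all 6 and 2 peaks of replicate 3, against 93.2%. Of the replicate 2 peaks, 6 of 17 and 2 of 10 lay in shared regions, against 25.7%. These shares were near those of the whole lists.

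**Figure D1:**
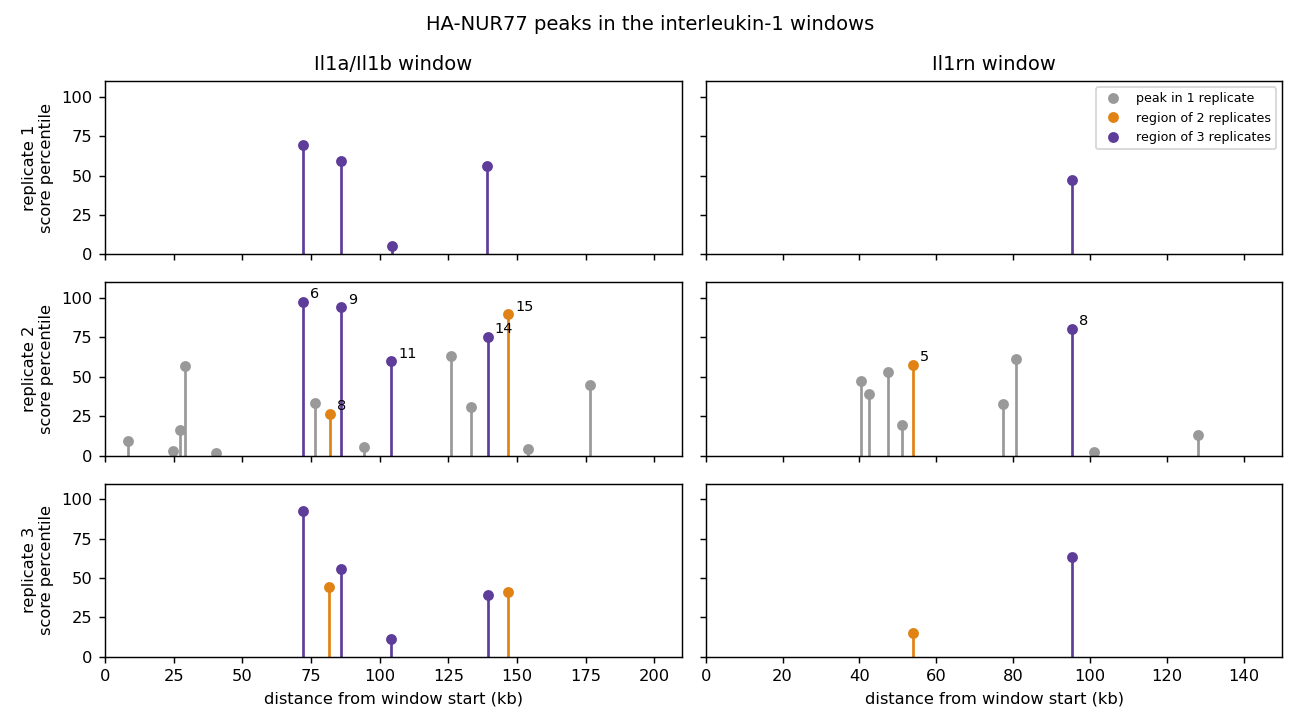
Called peaks in the Il1a/Il1b window (left) and the Il1rn window (right), by replicate; the horizontal axis is the distance from the window start in kb and the height is the percentile of the peak's score within its own list. Colours give the number of replicates in the merged region and the numbers name the shared regions; the shared Il1a/Il1b regions lie within 75.5 kb in the middle of the window, and all peaks of replicates 1 and 3 are in shared regions.

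The 6 shared regions around Il1a and Il1b lay within 75.5 kb, from 129131667 to 129207116. No shared region lay in the first 71.7 kb or the last 62.9 kb of the window. They fell at 3 places along it. Regions 6, 8 and 9 came first, with centres 9.79 kb and 4.18 kb apart. Region 11 followed 18.2 kb after region 9. Regions 14 and 15, whose centres were 7.45 kb apart, began 35.1 kb after region 11. The median distance between neighbouring centres was 9.79 kb in this window and 54.0 kb over all regions of at least 2 replicates. Distances in the window are bounded by its 210 kb and those of the genome are not, so the medians are not like for like.

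Region 6 was the strongest site of the Il1a/Il1b window in each replicate. It covered 129131667 to 129132366 (700 bp). Its score, which is the authors' own value per peak and is used here only within a list, was 64.419, 804.702 and 179.582 in replicates 1, 2 and 3. These scores ranked 2073 of 6777, 891 of 37307 and 670 of 8862. Expressed as the percentage of the list's other peaks that scored lower, called the percentile from here on, they stood at 69.4, 97.6 and 92.5. The site was thus near the top of replicates 2 and 3 and only moderately placed in replicate 1. All 450 bp of the replicate 1 peak lay inside the peaks of both other replicates, and the 3 centres spanned 55 bp.

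Region 9, at 129145667 to 129146316 (650 bp), came second in each replicate. It scored 52.755, 485.054 and 56.276 in replicates 1, 2 and 3, at percentiles of 59.3, 94.0 and 55.7. In replicates 1 and 3 it was an ordinary peak of its list, whereas in replicate 2 it ranked 2236. The lists had 352 bp in common there, and the centres spanned 73 bp.

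Region 14, at 129199017 to 129199616 (600 bp), was also called in all 3 replicates. Its scores of 49.445, 166.848 and 41.333 stood at percentiles of 55.8, 75.4 and 39.0. It was above the middle of the lists of replicates 1 and 2 and below that of replicate 3. The lists had 302 bp in common, and the centres spanned 93 bp.

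Region 11, at 129163917 to 129164548 (632 bp), was the weakest of the 4 in each replicate. Its scores were 24.168, 102.296 and 26.736, at percentiles of 5.18, 59.9 and 11.2. It held peaks of all 3 replicates only because the replicate 2 peak joined the others. The replicate 1 peak, at 129164249 to 129164548, and the replicate 3 peak, at 129163997 to 129164246, left a gap of 2 bp and had centres 277 bp apart. Of the 4723 regions of all 3 replicates, 42 (0.889%) likewise had no base common to the lists. In the authors' deposited table, region 11 appears as separate intervals of 250 bp and 268 bp, each named for 2 replicates.

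The other 2 shared regions of the Il1a/Il1b window had no peak in the replicate 1 list. Region 15, at 129206417 to 129207116 (700 bp), scored 337.275 in replicate 2 and 43.012 in replicate 3, at percentiles of 89.6 and 41.2. It was the third strongest peak of the window in replicate 2, and the 300 bp of the replicate 3 peak lay wholly within it. Region 8, at 129141547 to 129142066 (520 bp), scored 44.305 in replicate 2 and 45.73 in replicate 3, at percentiles of 26.6 and 44.6. Its peaks were offset, with centres 170 bp apart and 180 bp in common, which is 51.4% of either peak. In replicate 3 region 8 ranked above regions 14 and 15, and in replicate 2 below both, so the order of the weaker sites was not the same in these lists.

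Of the running numbers in the peak names, which follow position, 39.1%, 19.7% and 38.8% are absent from the whole lists of replicates 1, 2 and 3. In replicate 1, 1 number is absent between the peaks of regions 6 and 9, over the 13.4 kb from 129132248 to 129145699, a stretch that contains region 8. In replicate 2, 2 numbers are absent within the window, both before region 6, and 1 is absent within the Il1rn window. An absent number is thus common in these lists. Where a peak of an absent number lay, and whether it would have matched region 8, was not tested.

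**Figure D2:**
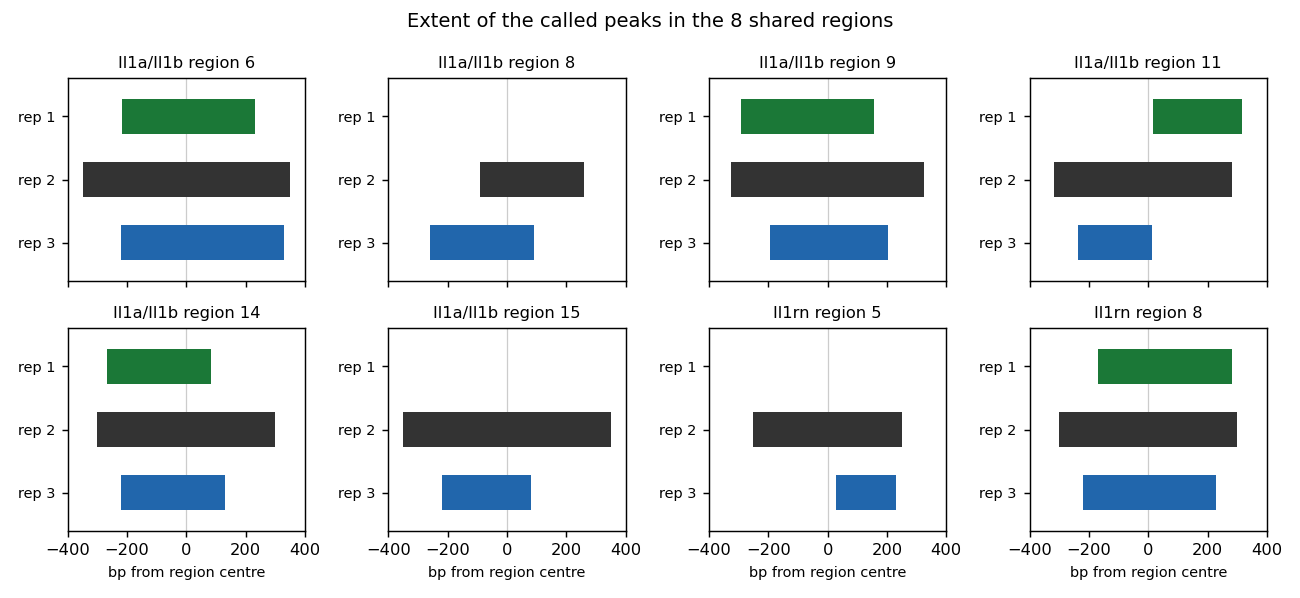
Extent of each called peak in the 8 shared regions, in bp from the centre of the merged region, 1 panel per region and 1 bar per replicate. In Il1a/Il1b region 11 the bars of replicates 1 and 3 do not overlap, and regions 8 and 15 of Il1a/Il1b and region 5 of Il1rn have no replicate 1 bar.

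At Il1rn, 1 site was called in all 3 replicates. Region 8 of this window, at 24214867 to 24215466 (600 bp), scored 42.552, 205.313 and 66.641 in replicates 1, 2 and 3. The ranks were 3594, 7306 and 3229.5, the last a tie of 2 peaks, and the percentiles were 47.0, 80.4 and 63.6. It was the highest-scored peak of the window in each replicate, and near the middle of the replicate 1 list. The lists had 398 bp in common and the centres spanned 57 bp. In replicate 1 the nearest listed peaks were 1312 kb before and 790 kb after it. Of the running peak numbers, 1 is absent from the list in the first of these gaps and 2 in the second.

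The other shared region at Il1rn was weak. Region 5, at 24173567 to 24174066 (500 bp), scored 95.773 in replicate 2 and 28.421 in replicate 3, at percentiles of 57.6 and 15.1, and had no peak in the replicate 1 list. The replicate 3 peak was 200 bp wide and lay wholly within the replicate 2 peak, with centres 130 bp apart. Regions 5 and 8 were 41.4 kb apart.

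The shared regions were set beside all regions called in as many replicates, since peaks in regions of all 3 replicates score higher as a class. The median percentile of such peaks in replicates 1, 2 and 3 was 60.1, 91.3 and 66.0. Region 6 of Il1a/Il1b was above the median of this class in all 3 replicates and above its upper quartile in replicates 2 (96.4) and 3 (84.0). Region 9 was above the median in replicate 2 only. Region 14 and the Il1rn site, region 8, were below the median in each replicate, and region 11 was below the lower quartile (36.4, 82.1 and 43.4) in each. For regions of exactly 2 replicates the median percentile was 73.9 in replicate 2 and 31.5 in replicate 3. Region 15 was above both, region 8 of Il1a/Il1b was below the first and above the second, and region 5 of Il1rn was below both. These placements are given without a test, since peaks are no replicates.

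**Figure D3:**
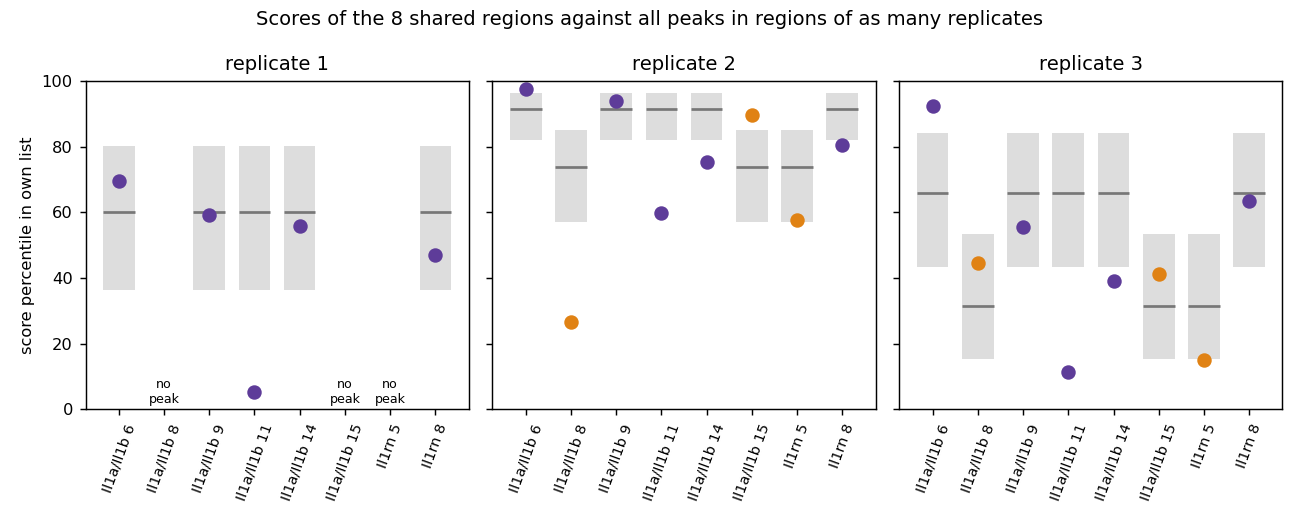
Score percentile within its own list (vertical axis) of the 8 shared regions, 1 panel per replicate; points are coloured by the number of replicates in the region, as in the map of peaks. Grey boxes give the lower to upper quartile and grey lines the median of all peaks in regions of as many replicates; Il1a/Il1b region 6 is above the grey line in all panels and region 11 is below the box in all panels.

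The peaks called in replicate 2 alone were mostly low in its list around Il1a and Il1b. The 11 such peaks scored 23 to 113.094 and were 250 to 550 bp wide. Their percentiles ran from 1.79 to 63.2 with a median of 16.1, and 3 of the 11 were above 38.8, the median of all peaks of replicate 2 alone. The best-ranked was region 12, at 129185817 to 129186166, with a score of 113.094. It scored above the replicate 2 peaks of regions 8 and 11, which were shared. Around Il1rn the 8 such peaks scored 23.507 to 106.973, at percentiles of 2.39 to 61.5 with a median of 35.8, and 4 were above 38.8. The best-ranked was region 7, at 24200467 to 24200966, with a score of 106.973, above that of the shared region 5.

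Taking all peaks of a window together, their scores were ordinary for their lists. The median percentile of the Il1a/Il1b peaks in replicates 1, 2 and 3 was 57.6, 33.6 and 42.9 (mean 44.7 ± 12.1, SD, n = 3), where the middle of a list is 50 by construction. For Il1rn it was 47.0, 43.3 and 39.3, a mean of 43.2 ± 3.82 (SD, n = 3). The first of these Il1rn values is a single peak.

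Both windows were denser in peaks than the rest of chromosome 2 in each replicate. Around Il1a and Il1b there were 19.0, 81.0 and 28.6 peaks per Mb in replicates 1, 2 and 3, against 3.37, 17.6 and 4.63 over the rest of the chromosome. The ratios were 5.65, 4.59 and 6.18, a mean of 5.47 ± 0.808 (SD, n = 3). Around Il1rn there were 6.67, 66.7 and 13.3 peaks per Mb, with ratios of 1.98, 3.78 and 2.88, a mean of 2.88 ± 0.902 (SD, n = 3). Over the log2 ratios, the exact two-sided sign-flip permutation test gave p = 0.25 for either window (higher in 3 of 3 replicates), which is the smallest p that 3 replicates allow. No densities could pass 0.05 in this test with 3 replicates, so it could not decide whether either window is denser. In replicate 1 the density of the rest of the chromosome corresponds to 0.506 peaks in the length of the Il1rn window, so the single peak there by itself gives a ratio above 1. The reference is the whole remaining length of the chromosome, assembly gaps included.

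The Il1a/Il1b window had the higher ratio in each of the 3 replicates. The difference of the log2 ratios in replicates 1, 2 and 3 was 1.51, 0.28 and 1.10 (mean 0.96 ± 0.63, SD, n = 3). The same permutation test gave p = 0.25, the smallest that 3 replicates allow, so it could not decide whether the windows differ. In replicate 1 the Il1rn side of this comparison is 1 peak.

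**Figure D4:**
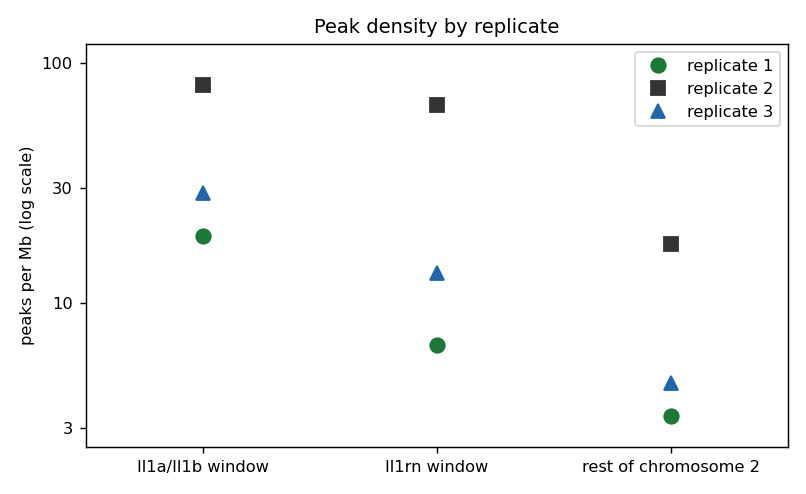
Peaks per Mb (log axis) in the Il1a/Il1b window, the Il1rn window and the rest of chromosome 2, with 1 point per replicate. In each replicate the Il1a/Il1b point is the highest, from 19.0 to 81.0 peaks per Mb, and the rest of the chromosome the lowest, from 3.37 to 17.6.

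Regions seen in several replicates were compared with the whole autosomes by cutting these into consecutive tiles of the windows' lengths. Of 11765 tiles of 210 kb, 242 (2.06%) held at least 6 regions of at least 2 replicates, the number around Il1a and Il1b, and the mean was 0.801 per tile. At least 4 regions of all 3 replicates, the number in this window, were in 204 tiles (1.73%). The 4 include region 11, which has no base common to the 3 lists, and the tiles were counted by the same merging. Of 16471 tiles of 150 kb, 14.0% held at least 2 regions of at least 2 replicates and 18.0% held at least 1 region of all 3, the numbers around Il1rn. By this count the Il1a/Il1b window was among the denser stretches and the Il1rn window was not unusual. The windows were drawn around genes and the tiles were not, and tiles over gaps in the assembly were counted, so the percentages are a description and not a test.

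The authors' deposited table of intervals covered by at least 2 replicates lists 13 intervals in the Il1a/Il1b window and 4 in the Il1rn window. Joined where they touch, they form 7 and 2 stretches that cover 2444 and 702 bp. Stretches covered by all 3 replicates occur in 3 of the 7, those of regions 6, 9 and 14, and in 1 of the 2, region 8 of Il1rn. The replicates that the table names match the 3 lists for 13 of the 17 intervals as written, and for all 17 with the names of replicates 2 and 3 exchanged. Each of the 13 names both replicates 2 and 3, so it matches under either naming and cannot tell them apart. Every other interval names replicates 1 and 3, where the lists hold peaks of replicates 1 and 2. Replicate numbers here follow the lists.

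The results at the window borders did not hinge on a peak near an edge. The nearest member to a border was the replicate 2 peak at 129068267 to 129068716, 8.49 kb inside the Il1a/Il1b window, with a score of 28.954. Beyond the end of that window, a peak at 129315217 to 129315866 in replicate 2 (percentile 82.5) and one at 129315399 to 129315698 in replicate 1 (44.1) overlapped, 45.5 kb outside. Before the start of the Il1rn window, replicate 2 had a strong peak at 24070017 to 24070766 (score 483.285, percentile 94.0), 49.6 kb outside and above every peak within the window.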

How the data were processed

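ChIP-seq against the HA tag was deposited for 3 replicates of 1 group. The authors deposited a peak list per replicate with a position and a score in mm9, per the submitters' processing notes. The peak names are of the form MACS gives. Not given in the sources used here are the caller's version and threshold, the aligner and how control reads were used. The scale of the score is not stated, so it was ranked within each list, with mean ranks for ties. Reads were not part of the lists, so depth is unknown. A peak belonged to a window by its centre. Shares carry exact (Clopper-Pearson) 95% intervals. Shared regions, and the best-ranked region of replicate 2 alone in each window, were named by rule. The windows, regions and comparisons were chosen with earlier results of these data known. The comparison between the windows and the tiles were chosen after their peaks were seen. A planned list of interleukin-1 pathway genes needs an mm9 annotation and was not analysed here. Chromosome lengths came from GenomeInfoDb 1.38.1. Tools were Python 3.11.15 with pandas 2.3.3, numpy 2.4.6, matplotlib 3.10.9 and scipy 1.17.1. The code that merges peaks was tested on simulated data. The simulated peaks were far apart, of equal width between lists and little shifted. Strongly offset peaks, and peaks joined only through a peak of another list, were therefore not tested.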

Additional observations from a re-analysis of the deposited data

How the results depend on the processing

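The mean log2 ratio of either window's density to the rest of chromosome 2 stayed positive under every alternative that gave a value. Il1rn gave none with shorter lists. Leaving out a replicate could not change the sign, since the log2 ratio was positive in all 3 replicates for either window. The log2 ratio of Il1a/Il1b was 2.44, and 2.35 to 2.56 without one replicate (exact p = 0.5, the smallest for 2 replicates). That of Il1rn was 1.48, and 1.25 to 1.72. With each kind of shorter list, 1 replicate held no Il1rn peak, so it had no ratio and lay below the rest of the chromosome. This was replicate 1 with the higher-scored 50%, and replicate 2 with an equal number of best-scored peaks. Counts fell with shorter lists by construction. With the higher-scored 50% of each list, the mean was 4 peaks for Il1a/Il1b and 1.67 for Il1rn, with 3 and 1 regions of at least 2 replicates and 2 and 0 of all 3. With an equal number of best-scored peaks, the means were 4 and 0.667, with 2 and 0 regions of all 3. Regions of at least 2 replicates then numbered 4 for Il1a/Il1b and 1 for Il1rn. A reciprocal overlap of 50% left 4 of the 6 shared regions for Il1a/Il1b, and centres within 100 bp left 5. Either rule left 1 shared region for Il1rn. Regions of all 3 replicates fell from 4 to 3 for Il1a/Il1b under either rule, and stayed at 1 for Il1rn. In region 5 of Il1rn the narrower replicate 3 peak covers only 40% of the replicate 2 peak, and the centres are 130 bp apart. Without one replicate, 3 to 6 shared regions were found for Il1a/Il1b, with 3 without replicate 2, and 1 to 2 for Il1rn, with 1 without replicate 2 or replicate 3. No paired analysis was possible because there are no groups to pair across replicate numbers, although the windows were set against other sequence within each replicate. Since depth is unknown, the lack of a called peak does not show that a site was unbound.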
